A study of Mus musculus with 4 samples.

Results

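The 10 genes described here encode the machinery of V(D)J recombination and end joining: *Rag1*, *Rag2*, *Dntt* (TdT), *Xrcc5* (Ku80), *Xrcc6* (Ku70), *Prkdc* (DNA-PKcs), *Dclre1c* (Artemis), *Lig4*, *Xrcc4* and *Nhej1* (XLF). They were taken by symbol from a table of 55359 genes, with earlier results of these data known, and all 10 were found. V(D)J recombination assembles immunoglobulin genes from V, D and J segments. The RAG1 and RAG2 proteins form the recombinase that cuts at recombination signal sequences. The broken ends are then handled by classical non-homologous end joining, in which the Ku heterodimer binds the ends, DNA-PKcs with Artemis opens the hairpins, terminal transferase (TdT) can add nucleotides, and ligase IV with XRCC4 and XLF seals the joint. The RAG genes are switched on in proB and preB cells and TdT acts mainly at the proB stage, whereas the end joining factors work in nearly every cell.

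The RNA came from T8, a B progenitor leukemia line (pB-ALL in the labels) established from 1 primary tumor of an *Irf4*-/- mouse. All cells carried the *Irf4*-/- genotype and all cultures were transduced with a retrovirus. The study's text does not say whether GFP-positive cells were sorted for the RNA. EV-RV, the control, encodes GFP alone, and IRF4-RV encodes GFP plus IRF4, a transcription factor of the B lineage. The study's text places collection of viable cells at 24 h after transduction, and 2 libraries per group were sequenced. Sequencing depth was 31686715 and 31230223 counts for EV-RV against 34771970 and 37817752 for IRF4-RV. The comparison asks how returning IRF4 to the leukemia cells alters the transcripts of the recombination and joining machinery.

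*Irf4* had 8070 and 7600 counts with EV-RV against 95578 and 90693 with IRF4-RV (log2 fold change 3.46, standard error 0.0907, edgeR adjusted p = 1.14e-06). Reads from the vector and from the disrupted locus are not separated in these counts. B cell progenitor markers were present, with 14 of 15 passing the filter on low counts. Their summed level was 6919 and 7318 CPM (counts relative to TMM-scaled library size) with EV-RV and 5753 and 5679 CPM with IRF4-RV. Of these 14, 3 were called higher (21.4%) and 5 lower (35.7%), against 16.0% and 13.7% of all genes. They ran from *Vpreb1* (-1.49) to *Blnk* (1.04) on the log2 scale. Of the 12 T lineage markers, *Cd8a* and *Cd8b1* were at 0 in each library, and the list summed to between 383.8 and 391.5 CPM with EV-RV and between 392.7 and 414.2 CPM with IRF4-RV. Of the 4 T lineage markers tested, *Trac* (-0.70) and *Zap70* (-0.50) were called lower on the log2 scale and none higher by edgeR or DESeq2, or at an unadjusted edgeR p under 0.05. The 13 myeloid markers summed to 1.56 and 1.52 CPM with EV-RV and 10.7 and 9.06 CPM with IRF4-RV, with *Adgre1*, *S100a8* and *S100a9* at 0. Of the 3 that passed the filter, 2 rose, *Mrc1* and *Ly6g*, where 16.0% of all genes rose. With at least 10 counts required in each library, *Ly6g* was not tested, 2 myeloid markers were, and 1 was higher. The rise of *Ly6g* thus depends on a filter that does not require counts in EV-RV. The 10 stromal markers, none at 0 in all libraries, summed to 79.4 and 144.1 CPM with EV-RV, and to 82.0 and 346.1 CPM with IRF4-RV. In the main edgeR fit, none of the 7 stromal markers tested was called, and none had an unadjusted p under 0.05. None was called with DESeq2. When all genes with at least 1 count were fitted, 6 of 10 were called higher, where 2571 of 30985 genes were higher. With the replicate block 6 of 7 were called higher, where 3426 of 14637 genes were higher. Their direction rested on IRF4-RV replicate 2. With all libraries the log2 fold changes of the 7 ran from 0.75 to 1.15, and without that library from -1.09 (*Pdgfrb*) to -0.28 (*Col3a1*). IRF4-RV replicate 2 stood apart, with 2265 counts of the collagen gene *Col1a1* against 496 to 850 in the other libraries. The part of these markers in the results was not tested, and results are also given without that library.

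Promoters are shown first for the lymphoid-specific members and for the 2 members that rose, because these genes run from CpG-poor to CpG-rich sequence. Each sequence is the 250 bases before a RefSeq gene start (GRCm38.p6), 5′ to 3′ on the strand of the gene, with CpG dinucleotides in capitals. *Rag1* (chr2:101649533-101649782, minus strand), *Rag2* (chr2:101624462-101624711, plus strand) and *Dntt* (chr19:41029025-41029274, plus strand) are the lymphoid-specific members.
Rag1: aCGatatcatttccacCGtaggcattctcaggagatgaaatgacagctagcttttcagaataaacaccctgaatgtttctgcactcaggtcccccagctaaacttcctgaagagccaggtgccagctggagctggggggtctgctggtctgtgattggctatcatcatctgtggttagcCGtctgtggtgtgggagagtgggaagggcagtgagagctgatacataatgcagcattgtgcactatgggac
Rag2: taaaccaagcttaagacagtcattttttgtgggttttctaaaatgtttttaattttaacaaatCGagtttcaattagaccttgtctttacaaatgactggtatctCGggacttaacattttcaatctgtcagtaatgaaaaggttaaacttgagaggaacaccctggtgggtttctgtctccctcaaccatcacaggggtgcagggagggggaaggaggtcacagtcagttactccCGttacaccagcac
Dntt: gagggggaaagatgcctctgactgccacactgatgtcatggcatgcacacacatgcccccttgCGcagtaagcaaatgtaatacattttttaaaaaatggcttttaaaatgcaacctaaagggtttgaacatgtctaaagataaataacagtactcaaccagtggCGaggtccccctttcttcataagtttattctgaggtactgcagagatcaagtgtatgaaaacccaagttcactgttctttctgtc

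*Dclre1c* (chr2:3423881-3424130, plus strand) and the inner of the 2 starts of *Lig4* (chr8:9976312-9976561, minus strand) are the members that rose with IRF4-RV.
Dclre1c: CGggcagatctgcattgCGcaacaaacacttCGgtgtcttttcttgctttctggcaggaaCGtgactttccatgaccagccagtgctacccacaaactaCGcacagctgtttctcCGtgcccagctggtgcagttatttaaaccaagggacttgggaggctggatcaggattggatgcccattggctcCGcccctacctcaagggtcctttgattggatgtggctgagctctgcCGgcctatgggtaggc
Lig4: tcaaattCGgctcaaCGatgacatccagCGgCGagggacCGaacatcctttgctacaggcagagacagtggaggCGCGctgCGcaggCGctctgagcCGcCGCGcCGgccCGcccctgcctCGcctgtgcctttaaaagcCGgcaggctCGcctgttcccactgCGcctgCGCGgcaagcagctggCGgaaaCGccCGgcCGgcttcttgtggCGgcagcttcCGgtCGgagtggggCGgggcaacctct

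*Rag1* and *Rag2* each held 3 CpGs in these windows and *Dntt* held 2, where the median of 32851 RefSeq windows was 6. Windows with 3 or fewer made up 37.8% of all windows, and those with 2 or fewer 29.0%. *Xrcc5* held 5, *Dclre1c* 8 and *Nhej1* 9. *Xrcc6* (25), *Xrcc4* (26) and *Lig4* (27 and 28 at its 2 starts) lay on CpG-rich sequence, and *Xrcc6*, the lowest of these, reached a count that 90.4% of all windows do not exceed. CpG content did not separate the genes by response, since both the lowest and the intermediate windows included genes that were called and the richest included *Lig4* as well as 2 genes that were not. *Prkdc* is named only.

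The same windows were searched on both strands for letters that IRF proteins are known to bind. The interferon-stimulated response element was searched as GAAANNGAA and the composite element shared by ETS factors and IRF4 as GGAANNGAA, and the same 9 letters cannot match both. The first occurs in 7.1% and the second in 7.0% of the 32851 windows. Of the 10 windows of 9 members, 1 held the first and 1 the second. Both are printed with the matching letters in capitals, on the strand of the gene. The *Xrcc5* match (printed stretch chr1:72307247-72307275, plus strand) is on the opposite strand and begins 164 bases before the start. The *Nhej1* match (printed stretch chr1:75125316-75125344, minus strand) is on the strand of the gene, 108 bases before the start.
Xrcc5: gtggaattggTTCTTTTTCtccacaatat
Nhej1: tagggcaacaGGAAAGGAAttaggaaagc

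The windows of *Rag1*, *Rag2*, *Dntt*, *Dclre1c* and *Lig4* held neither set of letters, which says only that these letters are not in these windows. *Xrcc5*, with a match, fell with IRF4-RV, and *Nhej1*, with a match, was not called.

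Of the 10 genes, 8 passed the filter on low counts and were tested with edgeR's quasi-likelihood test on TMM-scaled counts, with Benjamini-Hochberg adjustment over all 14637 genes and an FDR of 0.1. *Dclre1c* and *Lig4* rose with IRF4-RV, and *Dntt* and *Xrcc5* fell. *Xrcc6*, *Prkdc*, *Xrcc4* and *Nhej1* were not called, and *Rag1* and *Rag2* had too few counts to be tested. Over all genes, 29.7% were called, 16.0% higher and 13.7% lower. The 2 of 8 in each direction are set against that background. The groups did not overlap in 5 of these 8 genes and in 8966 of all 14637 genes tested, so that this alone is common. With library size alone in place of TMM, 1743 genes were called higher and 2865 lower. The share of higher genes among all calls thus changed from 53.8% to 37.8%. The log2 fold changes of the 8 genes ran from -1.55 to 1.19 with a median of -0.07, against a median of 0.01 over all genes. In bulk RNA, fewer cells of a type and less RNA per cell cannot be told apart, and the p-values measure the spread between these 2 libraries per group.

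**Figure D1:**
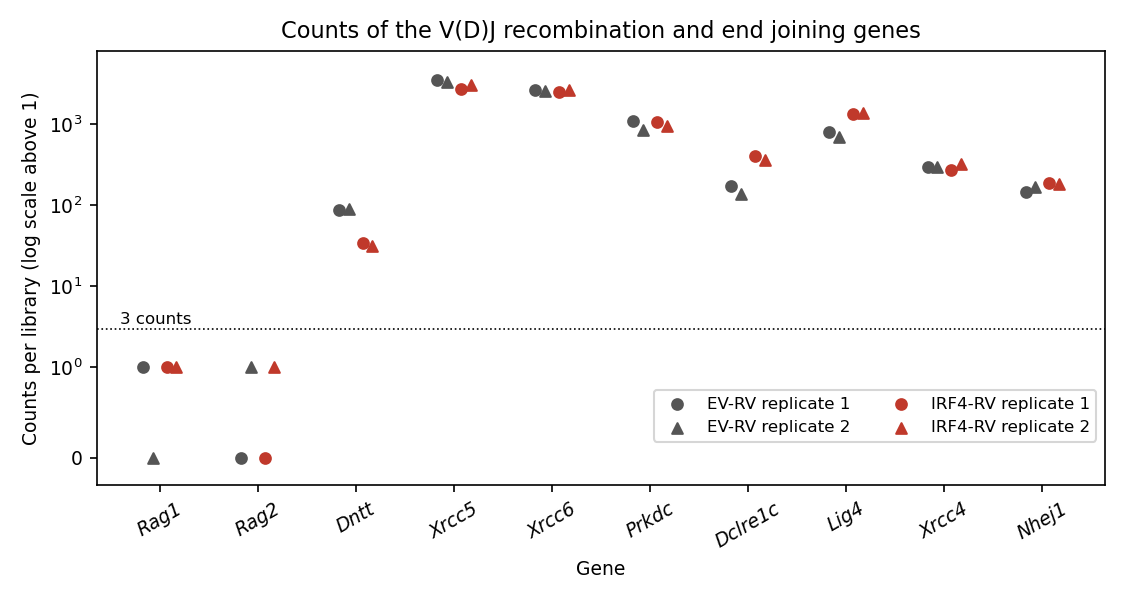
Counts of each of the 10 genes in each library (logarithmic above 1, linear between 0 and 1). Gray marks EV-RV and red IRF4-RV, circles are replicate 1 and triangles replicate 2, and the dotted line marks 3 counts. *Rag1* and *Rag2* lie at 0 or 1 in all 4 libraries, the *Dntt* and *Xrcc5* points are lower in red, and the *Dclre1c* and *Lig4* points are higher in red.

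The recombinase genes themselves were nearly silent. *Rag1* (ENSMUSG00000061311, GRCm38 chromosome 2, 101638282 to 101649501, minus strand) had 1 and 0 counts with EV-RV against 1 and 1 with IRF4-RV. *Rag2* (ENSMUSG00000032864, 101624718 to 101632529, plus strand) had 0 and 1 counts with EV-RV against 0 and 1 with IRF4-RV. Together these are 3 counts of *Rag1* and 2 of *Rag2* among 135506660 counts, with no separation of the groups. A count of 3 in a library, taken as the least that can be shown, corresponds to between 0.0823 and 0.0951 CPM after TMM scaling and covers counting error only. Any effect of IRF4-RV on either gene below that level was not detectable at this depth. Such a low total was not rare, since 7392 of 21877 protein-coding genes (33.8%) had at most 3 counts over the 4 libraries.

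The scale of the gap is seen per exon length, as CPM per kb of exon (RPKM). For *Rag1*, 3 counts in a library would amount to between 0.0125 and 0.0144 RPKM. The level of *Dntt*, itself a low gene here, was between 29.8 and 86.5 times that value over the 4 libraries. The level of *Lig4* was between 292.2 and 580.1 times that value.

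Counts near 0 did not extend over the whole locus. *Rag2* and *Rag1* lie tail to tail, 5752 bp apart, and 7 protein-coding genes, these included, lie within 500 kb on either side. *Traf6*, a ubiquitin ligase of cytokine receptor signaling and the next gene beyond the *Rag1* start, at 28927 bp, had 706 and 757 counts with EV-RV against 907 and 946 with IRF4-RV. The groups did not overlap, but *Traf6* was not called (log2 fold change 0.22, standard error 0.101, edgeR adjusted p = 0.162). *Commd9* was counted between 158 and 215 times in all 4 libraries, whereas *Prr5l* had 0, 0, 1 and 0 counts and *Ldlrad3* 9, 12, 2 and 9. *B230118H07Rik*, a gene on the minus strand that spans both *Rag* genes and shares 80 exonic bases with *Rag1* and 208 with *Rag2*, had 4, 9, 3 and 13 counts. Whether the counting used strand is not given in the sources used here, so that reads in these shared bases are uncertain.

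**Figure D2:**
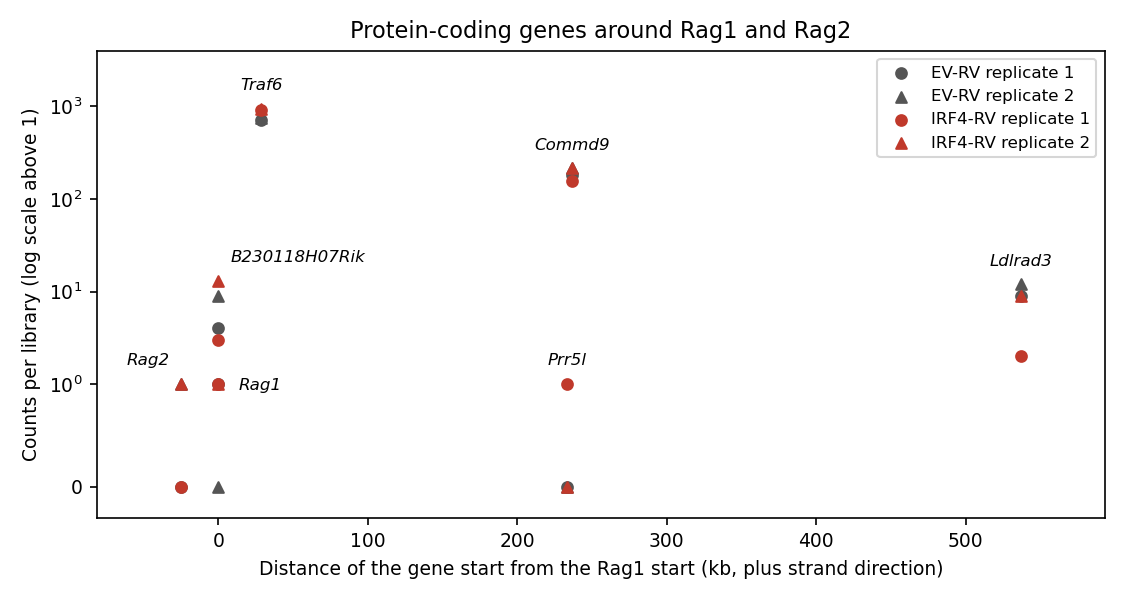
Counts in each library (logarithmic above 1, linear below) of the 7 protein-coding genes around *Rag1* and *Rag2*, against the distance of each gene start from the *Rag1* start in kb. Gray marks EV-RV and red IRF4-RV. *Traf6* and *Commd9* have at least 158 counts in every library, while *Rag1*, *Rag2* and *Prr5l* do not exceed 1.

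The transcript of TdT, which adds non-templated nucleotides at the coding joints, showed the largest fall of the members. *Dntt* (ENSMUSG00000025014, chromosome 19, 41029275 to 41059525, plus strand) had 86 and 90 counts with EV-RV against 34 and 31 with IRF4-RV. Both IRF4-RV libraries were below both EV-RV libraries. On average this was 2.71 ± 0.196 CPM in EV-RV cells and 0.927 ± 0.108 CPM in IRF4-RV cells (SD, n = 2 each), 0.342 times as high. On the log2 scale it fell by 1.55 (standard error 0.274, 95% interval -2.18 to -0.91, edgeR adjusted p = 0.00575). It stayed between -1.69 and -1.43 under the 11 alternatives, and was -1.43 (edgeR adjusted p = 0.002) without IRF4-RV replicate 2.

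The neighbor of *Dntt* changed the other way. *Blnk*, the adaptor of preB cell receptor signaling, lies 34739 bp away and had 3614 and 3402 counts with EV-RV against 7796 and 7771 with IRF4-RV (log2 fold change 1.04, standard error 0.076, edgeR adjusted p = 7.64e-05). *Opalin*, on the other side at 2184 bp, had 1 count in IRF4-RV replicate 2 and 0 in the rest. Patterns like that of *Dntt* were sought among 11765 genes with a mean of at least 50 counts, by log2 of CPM plus 0.5, centered over the 4 libraries. The 3 nearest genes were *Rapgefl1* (Euclidean distance 0.0395), *Nr1d2* (0.0396) and *4930509E16Rik* (0.0491). The added 0.5 narrows the change of a low gene such as *Dntt*. The edgeR log2 fold changes of the 3 genes were -1.33, -1.24 and -1.37, against -1.55 for *Dntt*. *Nr1d2*, which encodes a nuclear receptor of the circadian clock, had 725 and 729 counts with EV-RV against 344 and 324 with IRF4-RV. The likeness rests on 4 libraries and is a description. *Rag1* had too few counts for this measure.

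*Polm* and *Poll* encode polymerases of the same family, polymerase X, that also act in end joining. *Polm*, which acts mainly in light chain joining, had 384 and 362 counts with EV-RV against 609 and 689 with IRF4-RV, and rose (log2 fold change 0.68, standard error 0.102, edgeR adjusted p = 0.00271). *Poll* had 641 and 605 counts with EV-RV against 793 and 840 with IRF4-RV, and rose less (log2 fold change 0.28, standard error 0.0921, edgeR adjusted p = 0.0698). The *Poll* call was lost in 8 of the 11 alternatives, among them the removal of any 1 library, where the edgeR adjusted p lay between 0.172 and 0.289, and DESeq2, where the adjusted p was 0.205. Per exon length, the ratio of *Polm* to *Dntt* was 2.80 and 2.52 in EV-RV cells, against 11.2 and 13.9 in IRF4-RV cells. The IRF4-RV ratios lay above the EV-RV ratios, although the difference between the changes of both genes was not tested.

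**Figure D3:**
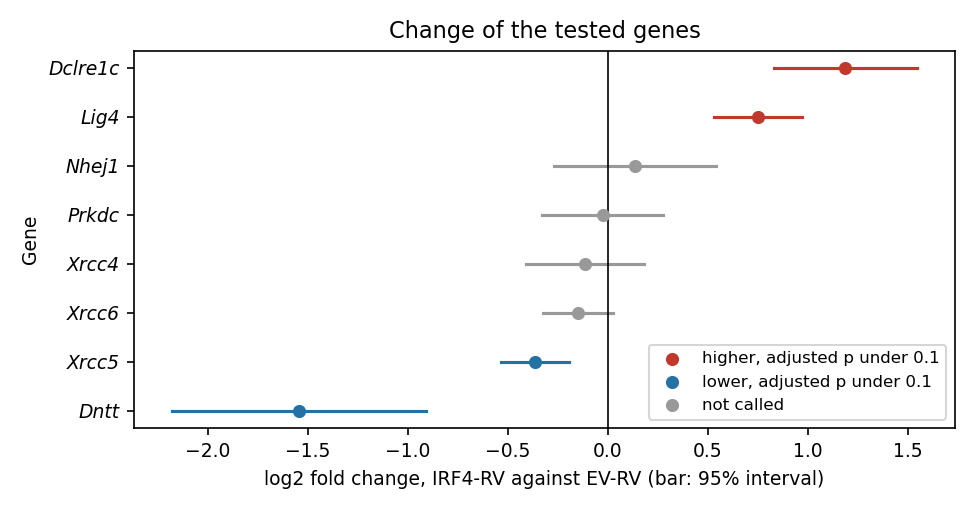
The log2 fold change of the 8 tested genes, IRF4-RV against EV-RV, with 95% intervals from edgeR. Red marks genes called higher, blue genes called lower at an adjusted p under 0.1, and gray genes that were not called. *Dntt* is lowest at -1.55 and *Dclre1c* highest at 1.19.

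Among transcripts of the factors that bind and hold the ends, that of Ku80 fell slightly. *Xrcc5* (ENSMUSG00000026187, chromosome 1, 72307421 to 72394952, plus strand) had 3478 and 3300 counts with EV-RV against 2702 and 2995 with IRF4-RV. After scaling, the 4 libraries were at 104.2, 104.6, 79.7 and 82.2 CPM, so that the groups were apart by far more than the spread within them. The level was 0.776 times as high with IRF4-RV (log2 fold change -0.37, standard error 0.0737, 95% interval -0.54 to -0.19, edgeR adjusted p = 0.0101).

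The transcript of the Ku80 partner Ku70 was not called. *Xrcc6* (ENSMUSG00000022471, chromosome 15, 81987835 to 82040085, plus strand) had 2653 and 2553 counts with EV-RV against 2477 and 2596 with IRF4-RV. After scaling, the values were 79.5, 80.9, 73.1 and 71.2 CPM and did not overlap between groups. The difference on the log2 scale was -0.15 (standard error 0.0754, 95% interval -0.33 to 0.02, edgeR adjusted p = 0.199). It was called lower with library size alone (-0.24, edgeR adjusted p = 0.0498). *Desi1*, on the opposite strand, shares 344 exonic bases with *Xrcc6* and rose, from 2260 and 2486 counts with EV-RV to 3500 and 3756 with IRF4-RV (log2 fold change 0.49, standard error 0.092, edgeR adjusted p = 0.00718). Without known use of strand, reads in the shared bases cannot be assigned to either gene. Per exon length, the ratio of *Xrcc5* to *Xrcc6* was 2.30 and 2.26 in EV-RV cells, against 1.91 and 2.02 in IRF4-RV cells.

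The transcript of the kinase subunit DNA-PKcs, which binds Ku on the ends, was not called. *Prkdc* (ENSMUSG00000022672, chromosome 16, 15637866 to 15842235, plus strand) had 1079 and 838 counts with EV-RV against 1069 and 957 with IRF4-RV, and the groups overlapped. Its log2 fold change was -0.03 (standard error 0.131, 95% interval -0.33 to 0.28, edgeR adjusted p = 0.909). *Mcm4*, a subunit of the replicative helicase whose gene lies 465 bp from *Prkdc*, was not called either (log2 fold change -0.15, standard error 0.0747, edgeR adjusted p = 0.195).

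The transcript of Artemis, the nuclease that DNA-PKcs activates to open the hairpin ends, showed the largest rise of the members. *Dclre1c* (ENSMUSG00000026648, chromosome 2, 3424131 to 3464130, plus strand) had 173 and 138 counts with EV-RV against 401 and 363 with IRF4-RV. Each IRF4-RV library held more than each EV-RV library. On average this was 4.78 ± 0.571 CPM in EV-RV cells and 10.9 ± 1.32 CPM in IRF4-RV cells (SD, n = 2 each). This is 2.28-fold higher, or 1.19 on the log2 scale (standard error 0.155, 95% interval 0.83 to 1.55, edgeR adjusted p = 0.00143). The rise lay between 1.04 and 1.31 on the log2 scale under the 11 alternatives, the upper value without IRF4-RV replicate 2.

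*Suv39h2*, a histone methyltransferase gene on the opposite strand, shares 357 of the 9316 exonic bases of *Dclre1c*. It had 567 and 544 counts with EV-RV against 460 and 418 with IRF4-RV and fell (log2 fold change -0.45, standard error 0.118, edgeR adjusted p = 0.0292), a call lost without IRF4-RV replicate 2 (-0.33, edgeR adjusted p = 0.153). Since the use of strand is not known, reads in the shared bases cannot be assigned to either gene. Their part in the change of *Dclre1c* was not tested. Per exon length, the ratio of *Dclre1c* to *Prkdc* was 0.227 and 0.233 in EV-RV cells, against 0.531 and 0.537 in IRF4-RV cells.

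For the complex that seals the joint, the transcript of the ligase rose and those of its partners were not called. *Lig4* (ENSMUSG00000049717, chromosome 8, 9969049 to 9977686, minus strand) had 800 and 690 counts with EV-RV against 1336 and 1370 with IRF4-RV. Both IRF4-RV libraries lay above both EV-RV libraries. On average this was 22.9 ± 1.48 CPM in EV-RV cells and 38.5 ± 1.28 CPM in IRF4-RV cells (SD, n = 2 each), 1.68-fold higher (log2 fold change 0.75, standard error 0.0944, 95% interval 0.53 to 0.97, edgeR adjusted p = 0.00122). *Abhd13*, which starts head to head with *Lig4* at a distance of 20 bp, had 1527 and 1490 counts with EV-RV against 1613 and 1739 with IRF4-RV and was not called (log2 fold change 0.04, standard error 0.0815, edgeR adjusted p = 0.797).

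*Xrcc4* (ENSMUSG00000021615, chromosome 13, 89774027 to 90089608, minus strand), the scaffold that binds and stabilizes ligase IV, had 295 and 298 counts with EV-RV against 271 and 323 with IRF4-RV, and the groups overlapped. It was not called (log2 fold change -0.12, standard error 0.127, 95% interval -0.41 to 0.18, edgeR adjusted p = 0.57). *Tmem167*, which shares 112 exonic bases with it, was not called (log2 fold change -0.15, standard error 0.0917, edgeR adjusted p = 0.305). Per exon length, the ratio of *Lig4* to *Xrcc4* was 2.20 and 1.88 in EV-RV cells, against 3.99 and 3.44 in IRF4-RV cells.

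*Nhej1* (ENSMUSG00000026162, chromosome 1, 74967139 to 75125200, minus strand), which encodes the XRCC4-like factor XLF, had 144 and 169 counts with EV-RV against 189 and 184 with IRF4-RV. After scaling, the values were 4.31, 5.36, 5.58 and 5.05 CPM and the groups overlapped. No call was made (log2 fold change 0.14, standard error 0.175, 95% interval -0.27 to 0.54, edgeR adjusted p = 0.632). The interval for *Xrcc4* includes a fall, and that for *Nhej1* a rise, as large as the change of *Xrcc5*, while that for *Prkdc* stops short of this size in both directions.

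In the EV-RV cells the members spanned a wide range of levels per exon length. *Xrcc5* was highest at 40.8 ± 0.117 RPKM (SD, n = 2), followed by *Xrcc6* at 17.9 ± 0.23. *Lig4* at 4.40 ± 0.284 and *Nhej1* at 4.32 ± 0.66 did not differ beyond their spread, nor did *Prkdc* at 2.23 ± 0.309 and *Xrcc4* at 2.17 ± 0.102. *Dntt* followed at 1.18 ± 0.0854 and *Dclre1c* at 0.513 ± 0.0613, and the 2 *Rag* genes, which overlapped each other, were last. With IRF4-RV, *Dclre1c* at 1.17 ± 0.142 RPKM lay above *Dntt* at 0.404 ± 0.047, so that this pair changed places. The order depends on the length used, since with the longest protein-coding transcript *Xrcc4* moved to the third place in EV-RV at 5.93 RPKM.

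The wider repair machinery was examined through lists of genes with the same or neighboring roles, described by counts and medians. Of 13 accessory factors of end joining, 2 rose in the main edgeR fit, *Polm* and *Poll* as given above. None fell in that fit or with DESeq2, though 1 was lower at an unadjusted edgeR p under 0.05. The 15.4% called in the main fit is below the 29.7% of all genes. With library size alone 1 was higher and 2 lower, against 1743 and 2865 of all 14637 genes. The replicate block gave 3 higher and 1 lower, against 3426 and 2968 of all genes. *Paxx*, which helps to hold Ku on the ends, had 346, 341, 305 and 332 counts and was not called (log2 fold change -0.22, edgeR adjusted p = 0.214).

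Of 17 genes of the double-strand break response, 2 rose and 1 fell, 17.6% in all against 29.7% of all genes. When all genes with at least 1 count were fitted, 2 were higher and 4 lower, where 2571 of 30985 genes were higher and 2034 lower. The number called was not stable when a library was left out. The median log2 fold change of the list was -0.16 with all libraries and -0.08 without IRF4-RV replicate 2. *Mad2l2*, a shieldin subunit that protects ends from resection, rose from 531 and 559 counts with EV-RV to 774 and 907 with IRF4-RV (log2 fold change 0.51, standard error 0.106, edgeR adjusted p = 0.0119). *H2afx*, the histone variant phosphorylated around breaks, rose by 0.27 on the log2 scale (edgeR adjusted p = 0.0324), and the call was lost without IRF4-RV replicate 1 (edgeR adjusted p = 0.145) and without IRF4-RV replicate 2 (edgeR adjusted p = 0.247). *Rif1*, which also limits resection, had 2247, 1637, 1626 and 1433 counts (log2 fold change -0.45, edgeR adjusted p = 0.0609), and its call was lost without EV-RV replicate 1 (edgeR adjusted p = 0.267) and without IRF4-RV replicate 2 (edgeR adjusted p = 0.152). *Atm*, the kinase activated by RAG breaks, was not called (log2 fold change -0.19, edgeR adjusted p = 0.277).

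Of 8 genes of alternative end joining, *Lig3*, its ligase, fell (2210, 1965, 1795 and 1940 counts, log2 fold change -0.27, edgeR adjusted p = 0.0453), and no call was left without EV-RV replicate 1 or without IRF4-RV replicate 2, where 1 and 0 genes had an unadjusted edgeR p under 0.05. The *Lig3* call was also lost without IRF4-RV replicate 1 (edgeR adjusted p = 0.163). Of 19 genes of homologous recombination, 2 fell and 0 rose in the main edgeR fit and with DESeq2. In the main fit, 0 were higher at an unadjusted edgeR p under 0.05. With the replicate block 1 was called higher and 6 lower, against 3426 and 2968 of all 14637 genes. In the main fit, the shares called for alternative end joining and homologous recombination were 12.5% and 10.5%, against 29.7% of all genes. With library size alone, 8 genes of homologous recombination were lower and 0 higher, where 2865 of all 14637 genes were lower and 1743 higher. Both genes called with TMM encode resection nucleases, *Exo1* (1254, 1292, 998 and 966 counts, log2 fold change -0.49, edgeR adjusted p = 0.0102) and *Dna2* (1487, 1510, 1253 and 1398 counts, log2 fold change -0.29, edgeR adjusted p = 0.0473). The *Dna2* call was lost without EV-RV replicate 2, IRF4-RV replicate 1 or IRF4-RV replicate 2, with an edgeR adjusted p between 0.146 and 0.187.

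**Figure D4:**
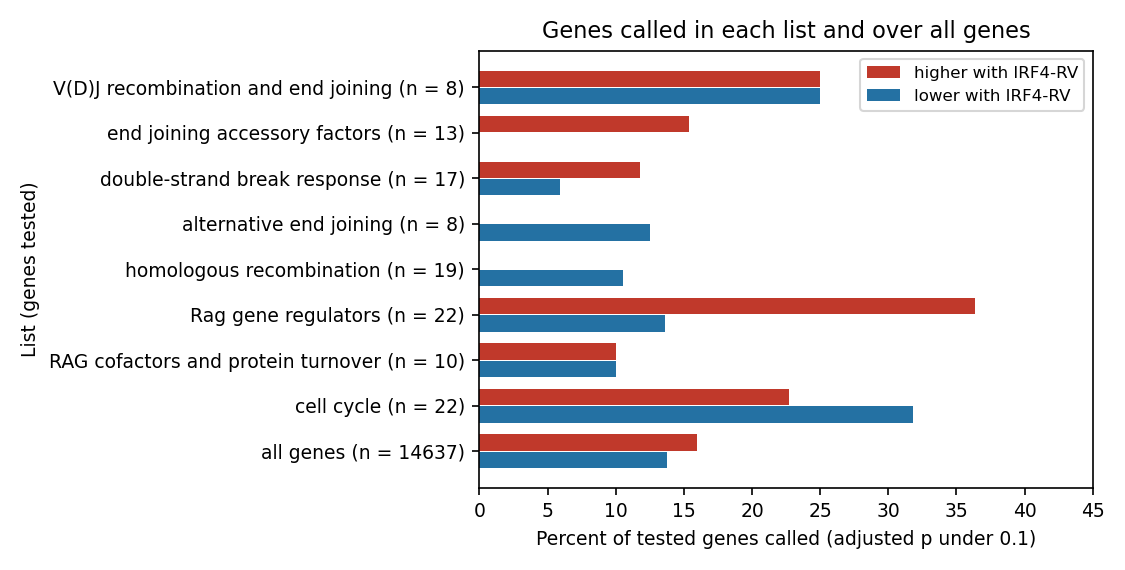
Percent of tested genes called higher (red) or lower (blue) with IRF4-RV in each list and over all 14637 genes tested, with the number tested in parentheses. The *Rag* gene regulators have 36.4% higher and 13.6% lower and the cell cycle list 22.7% and 31.8%, against 16.0% and 13.7% of all genes, and the 4 lists of repair factors beyond the members are each below 29.7% called in all with TMM scaling.

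Transcription factors linked to the *Rag* promoters and enhancers were examined next. Of 23 such factors, 22 were tested, *Satb1* having too few counts. A rise was found for 8 and a fall for 3, while 11 were not called, with a median log2 fold change of 0.02. The shares were 36.4% higher and 13.6% lower, against 16.0% and 13.7% of all genes. The share of falls was thus near that of all genes. *Foxo1*, a forkhead activator required for *Rag* transcription in B cell precursors, had 1009 and 943 counts with EV-RV against 2282 and 2227 with IRF4-RV (log2 fold change 1.10, standard error 0.0898, edgeR adjusted p = 0.000144). *Runx1*, a Runt factor of early lymphocytes, had 2811 and 2579 counts with EV-RV against 5744 and 5317 with IRF4-RV (log2 fold change 0.93, standard error 0.0917, edgeR adjusted p = 0.000367). *Gfi1*, a zinc finger repressor, fell from 903 and 791 counts to 470 and 425 (log2 fold change -1.03, standard error 0.117, edgeR adjusted p = 0.000728). In each of these 3 genes the groups did not overlap, as in 8966 of the 14637 genes tested.

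The other factors are named after their values were seen. *Ikzf3* (0.82), *Ets1* (0.70), *Myb* (0.62), *Ikzf1* (0.55), *Foxo3* (0.54) and *Bcl11a* (0.31) rose on the log2 scale. *Spi1* (-0.45) and *Irf8* (-0.32), which encode PU.1 and an IRF that pairs with it, fell. The *Bcl11a* call was lost without EV-RV replicate 1 (edgeR adjusted p = 0.167) and without IRF4-RV replicate 1 (edgeR adjusted p = 0.371), and the *Irf8* call without IRF4-RV replicate 2 (edgeR adjusted p = 0.134). *Pax5*, *Ebf1* and *Tcf3*, which set B lineage identity, were not called. Without IRF4-RV replicate 2, the median log2 fold change of the factors was 0.16, against -0.01 over all genes. With library size alone 7 factors were higher and 6 lower, against 1743 and 2865 of all 14637 genes.

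**Figure D5:**
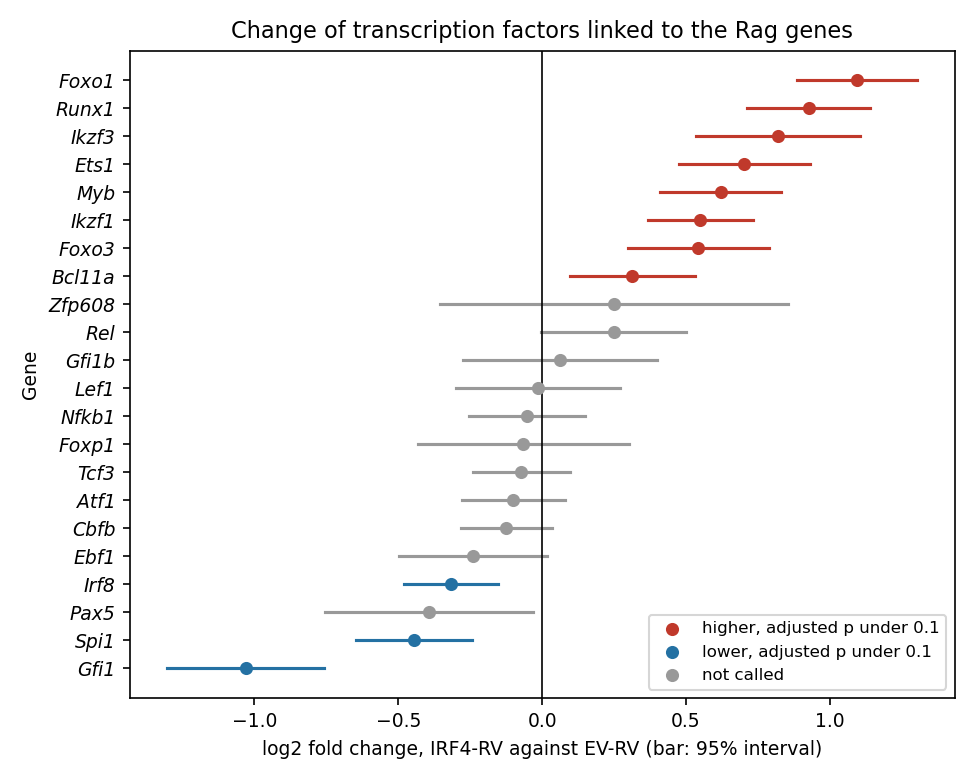
The log2 fold change, IRF4-RV against EV-RV, of the 22 tested transcription factors linked to the *Rag* genes, with 95% intervals from edgeR. Red marks genes called higher, blue genes called lower at an adjusted p under 0.1, and gray genes that were not called. *Foxo1* is highest at 1.10 and *Gfi1* lowest at -1.03.

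RAG protein is also limited by the cell cycle, since SKP2 marks RAG2 for destruction at entry into S phase and p27, encoded by *Cdkn1b*, counters that step. Of 10 cofactors and turnover factors, 1 rose and 1 fell, a share below the 29.7% of all genes. With library size alone 1 was higher and 4 lower, against 1743 and 2865 of all 14637 genes. *Skp2* had 1401 and 1342 counts with EV-RV against 1070 and 1109 with IRF4-RV (log2 fold change -0.45, standard error 0.0852, edgeR adjusted p = 0.00803). *Cdkn1b* had 1314 and 1097 counts with EV-RV against 1942 and 1866 with IRF4-RV (log2 fold change 0.55, standard error 0.102, edgeR adjusted p = 0.00716). *Hmgb1* and *Hmgb2*, whose proteins bend DNA for the recombinase, were abundant, with at least 26815 counts in each library, and were not called.

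Among 22 cell cycle genes, 5 rose and 7 fell, with a median log2 fold change of 0.00. These are 22.7% higher and 31.8% lower, against 16.0% and 13.7% of all genes. The D-type cyclins moved in opposite directions, as *Ccnd2* rose from 13578 and 12138 counts to 36191 and 35801 (log2 fold change 1.37, standard error 0.079, edgeR adjusted p = 2.6e-05) and *Ccnd3* fell from 22669 and 22708 counts to 13729 and 14476 (log2 fold change -0.80, standard error 0.0724, edgeR adjusted p = 0.000241). *Myc* fell from 9322 and 8915 counts to 4804 and 4479 (log2 fold change -1.09, standard error 0.0873, edgeR adjusted p = 0.000133). Fewer cell cycle genes were called when either IRF4-RV library was left out. With library size alone 2 cell cycle genes were higher and 10 lower, against 1743 and 2865 of all 14637 genes. The part of the cell cycle in the changes of the end joining genes was not tested.

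Of the remaining neighbors, *Mzt2* near *Prkdc* was called higher (log2 fold change 0.37, edgeR adjusted p = 0.0549), and *Vcan* near *Xrcc4* (-0.46, edgeR adjusted p = 0.0209) and *Snu13* near *Xrcc6* (-0.27, edgeR adjusted p = 0.0995) lower. The *Mzt2* call was lost without EV-RV replicate 1 (edgeR adjusted p = 0.249) and without IRF4-RV replicate 2 (edgeR adjusted p = 0.14). The *Snu13* call was lost without EV-RV replicate 2, IRF4-RV replicate 1 or IRF4-RV replicate 2, where the edgeR adjusted p lay between 0.144 and 0.39. Without IRF4-RV replicate 2, the library with the high stromal markers, 23.5% of all genes were called, and *Dclre1c* (1.31), *Lig4* (0.79), *Dntt* (-1.43) and *Xrcc5* (-0.38) kept their direction and call.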

How the data were processed

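Bulk RNAseq of T8 cells was analyzed, with 2 EV-RV and 2 IRF4-RV libraries grouped by the titles in the labels. Titles and tissue label give T8 but the protocols give T11, and T8 was taken. The authors deposited raw counts per gene, made with STAR (version 2.4.0j) and featureCounts on GRCm38. Settings for strand and multiple alignments are not given in the sources used here. Of 55359 Ensembl identifiers, 52083 were matched to GENCODE M21, which gave symbols, coordinates and exon lengths.

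Genes passing filterByExpr were fitted with edgeR 4.0.16 in R 4.3.3 on the deposited counts, using TMM factors (between 0.963 and 1.054), the quasi-likelihood test and Benjamini-Hochberg adjustment over 14637 genes, with calls at an FDR of 0.1. Standard errors were taken from the F statistic. Counts summed to between 31230223 and 37817752 per library, so that 3 counts are between 0.0793 and 0.0961 CPM of the unscaled library. Replicates differed by more than sampling noise (chi-square per degree of freedom 14.1 and 13.1). The design text calls them biological replicates. In simulated data the share of false calls exceeded the nominal FDR.

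The members and lists were chosen with earlier results of these data known. Genes named are the 10 members, *Irf4*, in each list the 3 called genes of largest change with a mean of at least 50 counts, overlapping genes, called neighbors, and the genes nearest in pattern to *Dntt*. Other genes (further *Rag* regulators, *Paxx*, *Atm*, *Hmgb1*, *Hmgb2*, the marker genes, and neighbors that were not called) were chosen after their values were seen. Promoters came from the RefSeq table, which matched 9 members. Alternatives were DESeq2 1.42.0, its size factors, library size only, 2 other filters, an FDR of 0.05, a replicate block and leaving out each library. The longest protein-coding transcript as gene length was added after seeing the data. *Shld3* was not matched. T11 libraries were not analysed here.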

Additional observations from a re-analysis of the deposited data

How the results depend on the processing

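The calls of *Dntt*, *Xrcc5*, *Dclre1c* and *Lig4* kept their direction and stayed past the threshold under all 11 alternatives, with 4 members called in each of the 4 fits that left out a library. The members that were not called were less stable. With a library left out, the log2 fold change of *Prkdc* ranged from -0.185 to 0.113 and changed sign without EV-RV replicate 1 (0.113) and IRF4-RV replicate 2 (0.104), and that of *Nhej1* ranged from -0.0206 to 0.302 and changed sign without EV-RV replicate 1, none of them called. *Xrcc6* became called with the replicate block (-0.15, edgeR adjusted p = 0.0595) and with library size only (-0.24, edgeR adjusted p = 0.0498). The cause of these shifts was not tested.

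The numbers called in the small lists moved more. Accessory factors went from 2 to 1 with DESeq2, with all genes of at least 1 count and at an FDR of 0.05, and ranged from 1 to 3 with a library left out. The double-strand break response went from 3 to 6 with all genes of at least 1 count, and ranged from 1 to 8 with a library left out, 8 without EV-RV replicate 2 and 1 without IRF4-RV replicate 2. Homologous recombination went from 2 to 8 and the RAG cofactors from 2 to 5 with library size only, and with a library left out they ranged from 1 to 3, the lowest without IRF4-RV replicate 2, and from 2 to 4, the highest without EV-RV replicate 1. Alternative end joining ranged from 0 to 1, the cell cycle from 5 to 12 and all genes from 3573 to 3646, against 4349 with all libraries. At an FDR of 0.05, 3347 genes were called. A lone library in a group was assumed to vary like the other group.

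Same-numbered libraries deviated together with Pearson's r of 0.26 across genes, which are not independent replicates, and the labels do not say what a number marks. With the replicate block, 6394 of 14637 genes were called, 3426 higher and 2968 lower. Against that background, 4 of 13 accessory factors were called (3 higher and 1 lower) and 8 of 17 genes of the break response (2 and 6). In homologous recombination 7 of 19 were called (1 and 6), and of the RAG cofactors 4 of 10 (1 and 3). Of 7 stromal markers 6 were called, all higher, and of 4 T lineage markers 1 was higher and 2 lower. Depth limits *Rag1* and *Rag2*, which had 0 or 1 count in each library.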
